A study of Mus musculus with 6 samples.

Results

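The genes Tnf, Il1b, Il1rn, Acod1 and Tnfaip2, a small set from the myeloid response to endotoxin, were followed across 6 mouse hippocampus libraries. They were chosen by name, as 2 cytokine genes, the gene of the interleukin-1 receptor antagonist, a metabolic enzyme gene and a TNF-induced gene, and make up 5 of the 3733 genes in the deposited table. Total RNA was sequenced in 3 groups of 2 libraries each. PIA+IL-27 hippocampus came from the group that the design text describes as given lipopolysaccharide (LPS, a cell wall component of Gram-negative bacteria) with recombinant interleukin-27, PIA (postnatal immune activation) hippocampus from the group given LPS, and Control hippocampus from the control group, whose vehicle is not named. Strain, sex, age, dose and time do not appear in the labels. The labels do not say whether the 2 libraries of a group came from separate animals or pools, so p-values measure only the spread between these libraries, which may be technical. In the edgeR fit of all 6 libraries that spread was pooled over genes. A gene's SE and p-value there do not measure that gene's own spread between libraries.

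LPS is sensed by CD14 and TLR4 on myeloid cells, and signalling through MyD88 and NF-kB switches on cytokine genes within a short time. Tnf encodes tumour necrosis factor, and Il1b encodes interleukin-1 beta, which is made as a precursor and cut by inflammasome caspases. Il1rn encodes an antagonist that occupies the interleukin-1 receptor without signalling, so the level of antagonist relative to cytokine bears on how much interleukin-1 activity a tissue can have. Acod1 encodes the enzyme that makes itaconate from an intermediate of the citric acid cycle in activated macrophages, and Tnfaip2 was named as a gene induced by TNF. In the brain these genes can be expressed by microglia, the resident macrophages, and by neutrophils and monocytes in vessels or tissue. In RNA from whole tissue, fewer cells of a type and less RNA per cell cannot be told apart.

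The promoters of the 5 genes are shown because the 5 genes had their highest value in the same library, and the letters near their starts can be compared. Each is the 250 bases upstream of the first annotated start in the RefSeq promoter table (mouse build GRCm38.p6), read 5′ to 3′ on the gene's strand. Capitals mark matches of a loose kB motif, GGGNNNNNCC on either strand, and of the TATA box TATAAA. The windows are chr17:35202008-35202257 on the minus strand for Tnf, chr2:129371140-129371389 on the minus strand for Il1b, chr2:24336610-24336859 on the plus strand for Il1rn, chr14:103046762-103047011 on the plus strand for Acod1 and chr12:111442411-111442660 on the plus strand for Tnfaip2.
Tnf: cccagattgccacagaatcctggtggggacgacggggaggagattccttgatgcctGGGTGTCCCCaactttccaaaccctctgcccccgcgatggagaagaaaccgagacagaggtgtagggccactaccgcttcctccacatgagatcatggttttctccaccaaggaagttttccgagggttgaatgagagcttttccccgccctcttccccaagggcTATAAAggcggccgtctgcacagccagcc
Il1b: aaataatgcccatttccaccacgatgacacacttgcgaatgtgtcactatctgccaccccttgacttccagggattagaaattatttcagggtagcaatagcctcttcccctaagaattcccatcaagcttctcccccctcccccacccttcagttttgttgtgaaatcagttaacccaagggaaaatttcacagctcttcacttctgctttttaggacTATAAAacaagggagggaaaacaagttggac
Il1rn: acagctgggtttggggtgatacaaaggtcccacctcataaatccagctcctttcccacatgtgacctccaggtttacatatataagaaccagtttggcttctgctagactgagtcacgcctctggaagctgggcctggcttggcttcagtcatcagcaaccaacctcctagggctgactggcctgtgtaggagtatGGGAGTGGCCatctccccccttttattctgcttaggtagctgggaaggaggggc
Acod1: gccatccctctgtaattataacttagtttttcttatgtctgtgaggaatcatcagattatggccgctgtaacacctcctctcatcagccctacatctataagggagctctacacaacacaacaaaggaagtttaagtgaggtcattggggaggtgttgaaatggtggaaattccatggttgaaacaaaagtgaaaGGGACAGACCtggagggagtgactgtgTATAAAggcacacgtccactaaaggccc
Tnfaip2: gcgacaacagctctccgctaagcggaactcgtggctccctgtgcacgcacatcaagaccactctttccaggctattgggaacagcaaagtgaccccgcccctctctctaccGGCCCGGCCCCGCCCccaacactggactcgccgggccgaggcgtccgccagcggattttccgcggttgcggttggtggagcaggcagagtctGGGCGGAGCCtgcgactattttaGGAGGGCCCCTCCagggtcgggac
The loose motif was found in 4 of the 5 first-start windows, Il1b being the one without, and in 45.8% of 32851 promoter windows of the same length. TATAAA was found in 3 of the 5, those of Tnf, Il1b and Acod1, and in 12.4% of all windows. The stricter kB consensus was found in 1 of the 5, Tnfaip2, where it overlaps a loose match, and in 7.25% of all windows. Tnfaip2 held 5 loose matches, some overlapping one another. The core letters of the PU.1 motif, GAGGAA on either strand, were in 2 of the 5, Tnf and Acod1, and in 23.3% of all windows. Il1rn has 3 annotated starts, and another of them, with the window chr2:24345121-24345370, holds a loose match as well. A match is a description of letters and not of a bound site.

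All values below are the authors' normalized read counts, the read count divided by 1 factor per library, unless a length-corrected unit (TPM, transcript abundance scaled to the library) is named. The reads in listed genes ran from 641672 to 1593441 per library and the factors from 0.917 to 1.05. Separately, the listed genes' share of a library's TPM ran from 2.14% in Control 1 to 5.61% in Control 2. Every gene in the table passed the authors' thresholds (a log2 change of 1 or more in either direction, with Q no higher than 0.05) in 1 or more of the 3 comparisons, so the genes were selected on these same libraries. The hippocampal material differed between libraries outside the myeloid genes. The summed normalized read count of 12 choroid plexus markers was 198 and 954 in the PIA+IL-27 libraries, 12089 and 466 in the PIA libraries, and 358 and 62469 in the Control libraries. The summed level of 4 Y-linked genes was 1476 and 6.80 in the PIA+IL-27 libraries, 541 and 594 in the PIA libraries, and 2.94 and 9.52 in the Control libraries. The effect of PIA and this difference cannot be told apart. PIA+IL-27 2 lay far below both PIA libraries as well, so a difference in Y-linked genes also enters PIA+IL-27 against PIA. Markers of the labelled tissue were present but uneven: 3 dentate granule cell markers summed to 267 and 1523 in the PIA+IL-27 libraries, 751 and 144 in the PIA libraries, and 674 and 1541 in the Control libraries. The 5 neocortex markers in the table summed to 8249 and 1625 in the PIA+IL-27 libraries, 2266 and 5445 in the PIA libraries, and 2626 and 1183 in the Control libraries, so PIA+IL-27 1 and PIA 2 stood apart.

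Tnf, the first cytokine, had normalized read counts of 4.17 and 3.88 in the PIA+IL-27 libraries, 50.0 and 21.8 in the PIA libraries, and 11.8 and 0.952 in the Control libraries. These rest on 4 and 4 reads in PIA+IL-27, 52 and 20 in PIA, and 12 and 1 in Control. The 2 PIA libraries were the highest of the 6, the PIA+IL-27 libraries lay between the 2 Control libraries, and Control 2 held a single read. The log2 fold change was 2.48 ± 1.21 (SE) for PIA against Control (edgeR quasi-likelihood test, adjusted p = 0.617) and -3.12 ± 1.27 for PIA+IL-27 against PIA (adjusted p = 0.257). Between single libraries, Tnf in PIA 2 was 1.86 times that in Control 1 (95% counting interval 0.864 to 4.17), and 5.23 times that in PIA+IL-27 1 (1.75 to 21.0).

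Il1b, the second cytokine, had 3.13 and 4.85 in the PIA+IL-27 libraries, 72.1 and 7.64 in the PIA libraries, and 18.6 and 1.90 in the Control libraries. PIA 1 stood apart, and the PIA group overlapped the Control group, since PIA 2 lay below Control 1. The log2 fold change was 1.95 ± 1.16 for PIA against Control (edgeR, adjusted p = 0.617) and -3.28 ± 1.25 for PIA+IL-27 against PIA (adjusted p = 0.257). Il1b in PIA 2 was 0.410 times that in Control 1 (0.146 to 1.02). It was 2.44 times that in PIA+IL-27 1 (0.557 to 14.6), so on counting error alone the lower of the PIA libraries could not be separated from that PIA+IL-27 library.

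Il1rn, the antagonist, had 5.21 and 2.91 in the PIA+IL-27 libraries, 170.1 and 6.55 in the PIA libraries, and 18.6 and 1.90 in the Control libraries. Of the 212 Il1rn reads in the 6 libraries, 83.5% came from PIA 1, against 55.9% of the 93 Tnf reads. As for Il1b, PIA 1 was highest, Control 1 came next and PIA 2 after it. The log2 fold change was 3.10 ± 1.13 for PIA against Control (edgeR, adjusted p = 0.449) and -4.41 ± 1.23 for PIA+IL-27 against PIA (adjusted p = 0.0615). Il1rn in PIA 2 was 0.352 times that in Control 1 (0.115 to 0.916) and 1.26 times that in PIA+IL-27 1 (0.319 to 5.20).

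Acod1, the itaconate enzyme, had 19.8 and 2.91 in the PIA+IL-27 libraries, 166 and 60.0 in the PIA libraries, and 21.5 and 0 in the Control libraries. Both PIA libraries lay above the other 4, and PIA+IL-27 1 lay just under Control 1. No Acod1 read was found in Control 2, and 3 reads, the limit that a count of 0 allows, would be 2.86 normalized reads there. Against the limit of 3 reads, and with the PIA counts taken as exact, Acod1 was 58.2-fold higher in PIA 1 and 21.0-fold higher in PIA 2 than in Control 2. The log2 fold change was 3.38 ± 1.11 for PIA against Control (edgeR, adjusted p = 0.278) and -3.31 ± 1.11 for PIA+IL-27 against PIA (adjusted p = 0.203). Acod1 in PIA 2 was 2.78 times that in Control 1 (1.67 to 4.80) and 3.03 times that in PIA+IL-27 1 (1.77 to 5.40); both counting intervals lie above 1.

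Tnfaip2, the TNF-induced gene, had 15.6 and 9.71 in the PIA+IL-27 libraries, 267 and 69.8 in the PIA libraries, and 52.9 and 22.9 in the Control libraries. Its 3 groups did not overlap: both PIA libraries were highest and both PIA+IL-27 libraries were lowest, below Control as well. The log2 fold change was 2.15 ± 0.995 for PIA against Control (edgeR, adjusted p = 0.617), -3.72 ± 1.08 for PIA+IL-27 against PIA (adjusted p = 0.0835) and -1.57 ± 1.01 for PIA+IL-27 against Control (adjusted p = 0.835). Tnfaip2 in PIA 2 was 1.32 times that in Control 1 (0.905 to 1.93) and 4.46 times that in PIA+IL-27 1 (2.52 to 8.44). For the 4 other genes PIA+IL-27 against Control gave log2 fold changes of -0.64 for Tnf, -1.33 for Il1b, -1.31 for Il1rn and 0.07 for Acod1 (-1.23 with TMM and -1.20 with median-of-ratios factors), with overlapping groups.

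**Figure D1:**
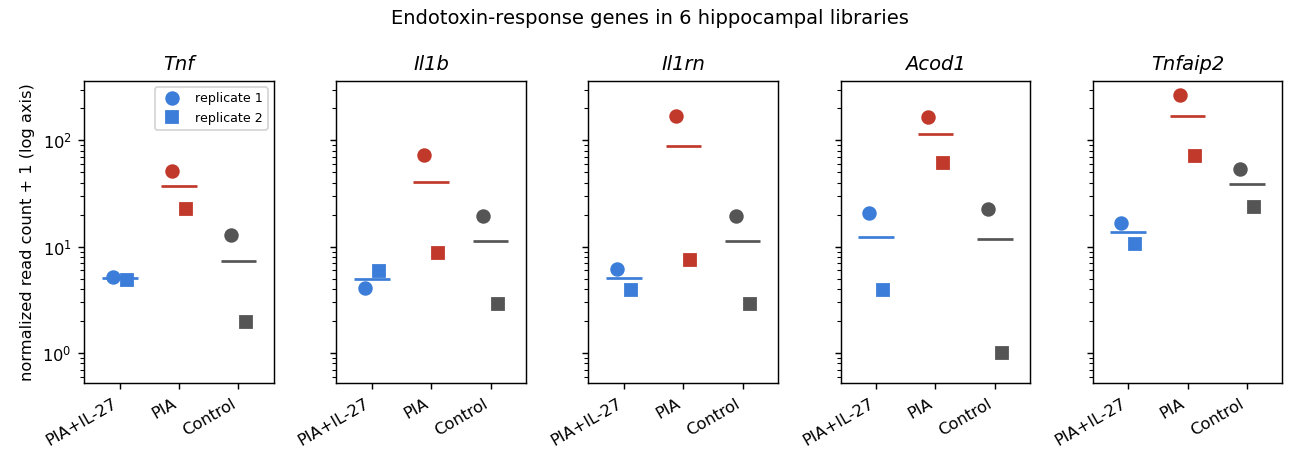
Normalized read count + 1 of each of the 5 genes (log axis) in the PIA+IL-27, PIA and Control libraries, with a circle for replicate 1, a square for replicate 2 and a line at the group mean. PIA 1 is the highest library for all 5 genes, from 50.0 for Tnf to 267 for Tnfaip2, and Acod1 is at 0 in Control 2.

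In PIA against Control none of the 5 genes passed edgeR's test at an adjusted p of 0.05, against 0.218% of the 3216 genes tested, and DESeq2 and limma called none of them either. At an unadjusted p under 0.05, 4 of the 5 were higher by edgeR, against 3.05% of all tested genes. That count was 2 by DESeq2, 4 and 3 by limma with 1 and 0.1 added to TPM, and 0 by edgeR with either TMM or median-of-ratios factors. The groups did not overlap for 3 of the 5, Tnf, Acod1 and Tnfaip2, against 15.3% of tested genes with PIA wholly higher. The median log2 fold change was 2.48 over the 5 genes and -0.68 over all tested genes. In the authors' deposited table the log2 fold changes were 2.47, 1.97, 3.13, 3.38 and 2.14 for Tnf, Il1b, Il1rn, Acod1 and Tnfaip2, and every Q value was 1.82e-09 or lower; 18.0% of the table's genes were listed as higher in that comparison. The Il1rn entry of the authors' deposited table, with a Q value of 1.67e-32, is for a gene whose second PIA library lies below a Control library.

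In PIA+IL-27 against PIA none of the 5 passed edgeR's test either, against 0.435% of tested genes; DESeq2 called 1, Tnfaip2, with an adjusted p of 0.0460, and limma called none. At an unadjusted p under 0.05, 5 of the 5 were lower by edgeR, against 4.35% of tested genes, and 5 by limma with either addition to TPM. That count was 4 by DESeq2 and 4 by edgeR with either TMM or median-of-ratios factors. The groups did not overlap for 5 of 5, against 15.1% of tested genes with PIA+IL-27 wholly lower. The median log2 fold change was -3.31 over the 5 genes and 1.17 over all tested genes. The authors' deposited table gives -3.13, -3.32, -4.47, -3.33 and -3.73 for Tnf, Il1b, Il1rn, Acod1 and Tnfaip2, with Q values of 1.81e-13 or lower, and lists 18.2% of its genes as lower there. Both comparisons use the PIA libraries, so a high PIA library enters each with opposite sign. In PIA+IL-27 against Control edgeR called none of the 5 (0.311% of tested genes), with none at an unadjusted p under 0.05 (2.86% of tested genes; 1 of the 5 with either TMM or median-of-ratios factors), and DESeq2 and limma called none. Tnfaip2 was the only one of the 5 whose groups did not overlap there, against 5.91% of tested genes with PIA+IL-27 wholly lower.

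All 5 genes differed less without PIA 1 in both comparisons that use the PIA libraries, and Il1b and Il1rn changed most. Without PIA 1, the log2 fold change of PIA against Control was 1.76 for Tnf, 2.47 for Acod1 and 0.88 for Tnfaip2, and below 0 for Il1b (-0.42) and Il1rn (-0.64). Without it, PIA+IL-27 against PIA gave -2.40 for Tnf, -2.39 for Acod1, -2.45 for Tnfaip2, -0.91 for Il1b and -0.68 for Il1rn. The single Control libraries moved the values as well. Without Control 1, PIA against Control came to 5.07 for Tnf, 4.30 for Il1b, 5.45 for Il1rn and 2.88 for Tnfaip2. Without Control 2, it came to 1.60 for Tnf, 1.10 for Il1b, 2.24 for Il1rn, 2.39 for Acod1 and 1.67 for Tnfaip2.

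**Figure D2:**
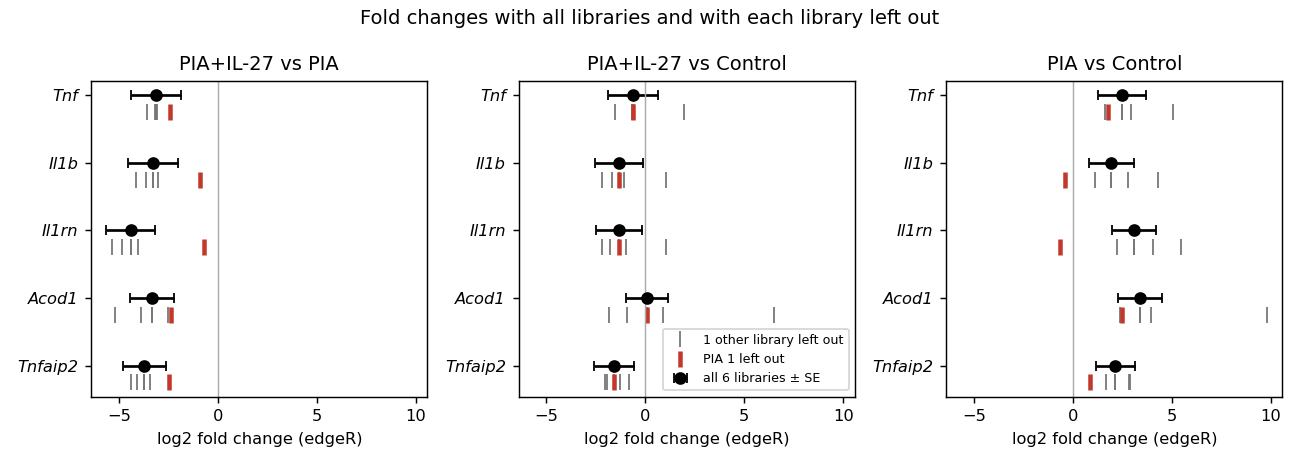
Log2 fold change with SE (edgeR, all 6 libraries) for each gene in PIA+IL-27 against PIA, PIA+IL-27 against Control and PIA against Control, with red ticks for the fit without PIA 1 and grey ticks for fits without 1 other library (for Acod1, those without Control 1 depend on the prior count). For PIA against Control, Il1b and Il1rn lie at 1.95 and 3.10 with all libraries and at -0.42 and -0.64 without PIA 1, where Tnf and Acod1 lie at 1.76 and 2.47.

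The balance of antagonist and cytokine was measured within each library as the share of Il1rn in the sum of Il1rn and Il1b reads, which needs no scaling between libraries. It was 62.5% (5 of 8 reads) and 37.5% (3 of 8) in the PIA+IL-27 libraries, 70.2% (177 of 252) and 46.2% (6 of 13) in the PIA libraries, and 50.0% (19 of 38) and 50.0% (2 of 4) in the Control libraries. PIA 1 had the highest share, and its 95% Clopper-Pearson interval of 64.2 to 75.8% overlapped that of Control 1, 33.4 to 66.6%. Such an overlap is not a test of the difference between the libraries. The intervals of the 4 libraries with 13 reads or fewer were wide, from 19.2 to 74.9% in PIA 2, for example. Intervals and floors cover counting error only.

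By group the share averaged 50.0% ± 17.7 in PIA+IL-27, 58.2% ± 17.0 in PIA and 50.0% ± 0 in Control (SD, n = 2 each). PIA differed from Control by 8.20 percentage points (two-sided exact permutation test, p = 1) and PIA+IL-27 from PIA by -8.20 points (exact permutation p = 0.667), where 2 against 2 cannot go below 0.333. With 2 libraries a group, no difference in balance could have passed this test. Corrected for length, the TPM of Il1rn was 0.788 and 0.288 times that of Il1b in the PIA+IL-27 libraries, 1.15 and 0.403 times in the PIA libraries, and 0.470 and 0.5 times in the Control libraries. PIA 1 was the only library in which the antagonist's TPM exceeded that of the cytokine.

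**Figure D3:**
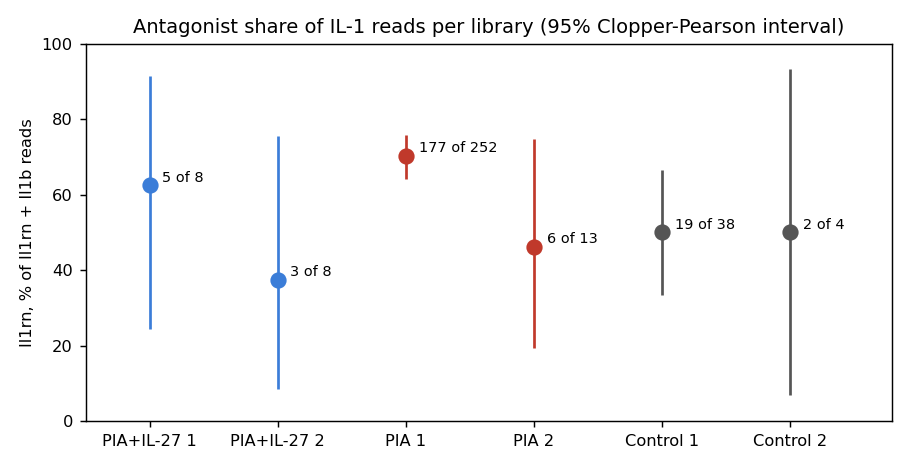
Share of Il1rn in the sum of Il1rn and Il1b reads (percent) in each library, with 95% Clopper-Pearson intervals. The share is 70.2% in PIA 1 and between 37.5 and 62.5% in the other 5 libraries, whose intervals overlap.

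Il1r2, the decoy receptor that binds interleukin-1 without signalling, had 5.21 and 3.88 in the PIA+IL-27 libraries, 111 and 3.27 in the PIA libraries, and 15.7 and 2.86 in the Control libraries. It followed Il1rn in being high in PIA 1 alone among the PIA libraries. Il1r1, the signalling receptor, had 51.1 and 41.7 in the PIA+IL-27 libraries, 148 and 46.9 in the PIA libraries, and 44.1 and 63.8 in the Control libraries, so it too was highest in PIA 1 with the other 5 close together. Il18bp, the antagonist of interleukin-18, had 189 and 96.1 in the PIA+IL-27 libraries, 178 and 303 in the PIA libraries, and 107 and 106 in the Control libraries, with PIA 2 highest.

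Compared per length, in TPM, the 5 genes were near one another in PIA 1, at 3.76 for Tnf, 6.91 for Il1b, 7.98 for Il1rn, 7.32 for Acod1 and 8.20 for Tnfaip2. In PIA 2 they spread from 0.29 TPM for Il1rn and 0.72 for Il1b to 1.58 for Tnf, 2.12 for Tnfaip2 and 2.54 for Acod1. The 5 together came to 2.38 and 1.47 TPM in the PIA+IL-27 libraries, 34.2 and 7.25 TPM in the PIA libraries, and 6.11 and 1.23 TPM in the Control libraries. The summed TPM of PIA 2 was thus close to that of Control 1, while its make-up differed: Acod1 was 35.0% of it in PIA 2 and 15.4% in Control 1, and Il1rn 4.0% in PIA 2 and 13.9% in Control 1. In PIA 1 Acod1 was 21.4% and Il1rn 23.4% of the sum.

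Over the 6 libraries, the log2(normalized read count + 1) of Il1b and Il1rn had a Pearson correlation of 0.971, and that of Tnf and Acod1 one of 0.948. The lowest of the 10 pairs was Acod1 with Tnfaip2, at 0.776. All the points share 6 libraries and the high value of PIA 1. The 3 tested genes most like Tnf were Gbp2, an interferon-induced GTPase (0.991), Klra2 (0.989) and Bcl2a1d (0.988), of a family of near-identical copies among which reads may be split. For Il1b they were the chemokine Cxcl1 (0.996), Plac8 (0.986) and Lrg1 (0.986). For Il1rn they were Slpi, a leukocyte protease inhibitor (0.993), the myeloid lectin Clec4d (0.988) and Ms4a6c (0.985). For Acod1 they were the MHC class I genes H2-K1 (0.998) and H2-Q4 (0.983), which belong to a family of similar genes, and Ebi3, a subunit of interleukin-27 (0.992). For Tnfaip2 they were Crispld2 (0.996), the complement receptor C5ar1 (0.995) and the complement inhibitor Serping1 (0.990).

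Ebi3 had 83.4 and 46.6 normalized reads in the PIA+IL-27 libraries, 136 and 100.4 in the PIA libraries, and 69.5 and 31.4 in the Control libraries. Its PIA libraries were the highest, with no overlap with the other 4, against 9.86% of all tested genes. Ebi3 was picked for its correlation with Acod1 over these same libraries, so an order like that of Acod1 follows from the choice. Slpi had 4.17 and 2.91 in the PIA+IL-27 libraries, 83.6 and 5.46 in the PIA libraries, and 11.8 and 0.952 in the Control libraries. Slpi, like Il1rn, had its lower PIA value below that of Control 1, and it was picked for its correlation with Il1rn in the same way.

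Neutrophil markers moved with the pattern of Il1b and Il1rn. The 10 of 12 listed neutrophil markers that are in the table summed to 308 and 151 normalized reads in the PIA+IL-27 libraries, 2264 and 361 in the PIA libraries, and 794 and 192 in the Control libraries. Of the 10, 9 were highest in PIA 1, against 11.0% of all tested genes. All 10 were higher in Control 1 than in PIA 2, as were Il1b and Il1rn. So were 4 of 6 monocyte markers, 2 of 3 astrocyte markers and 1 of 6 microglial markers. The share of all tested genes higher in Control 1 than in PIA 2 was not counted. The defining marker Ly6g had 0 and 0 in the PIA+IL-27 libraries, 10.6 and 0 in the PIA libraries, and 2.94 and 0.952 in the Control libraries. S100a8, an abundant neutrophil protein gene, had 26.1 and 14.6 in the PIA+IL-27 libraries, 598 and 19.6 in the PIA libraries, and 153 and 5.71 in the Control libraries.

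Microglial markers did not follow the 5 genes as a set. The 6 of 14 that are in the table summed to 1113 and 679 in the PIA+IL-27 libraries, 1223 and 755 in the PIA libraries, and 877 and 731 in the Control libraries. Of the 6, 4 were lowest in PIA 1, and P2ry12, the purinergic receptor of resting microglia, had 258 and 184 in the PIA+IL-27 libraries, 9.61 and 56.7 in the PIA libraries, and 14.7 and 232 in the Control libraries. Itgam, the integrin shared by microglia, neutrophils and monocytes, had 350 and 116 in the PIA+IL-27 libraries, 1137 and 409 in the PIA libraries, and 740 and 90.5 in the Control libraries. Itgam thus made up most of the microglial sum in PIA 1 and Control 1. The other 5 microglial markers were each lower in PIA 1 than in PIA 2, so the sum hides their order. Of the 6 monocyte markers in the table, 5 were highest in PIA 1, and these 5 summed to 28.2 and 39.8 in the PIA+IL-27 libraries, 356 and 69.8 in the PIA libraries, and 109.7 and 15.2 in the Control libraries. With the remaining marker, Vcan, which is also expressed by other brain cells, the sums were 1331 and 947 in the PIA+IL-27 libraries, 618 and 427 in the PIA libraries, and 378 and 806 in the Control libraries. The summed order PIA 1, Control 1 and then lower values was also that of 3 astrocyte markers and of the endothelial marker Ly6c1. The astrocyte markers, of which Gfap makes up most, summed to 6032 and 6769 in the PIA+IL-27 libraries, 19026 and 6594 in the PIA libraries, and 14462 and 7741 in the Control libraries. Of the 3 astrocyte markers only Gfap had this order. Aqp4 was highest in Control 2, and S100b was lowest in PIA 1. Ly6c1 had 91.8 and 228 in the PIA+IL-27 libraries, 483 and 184 in the PIA libraries, and 280.1 and 173 in the Control libraries. The part of the neutrophil, microglial, monocyte, astrocyte and endothelial markers in the values of the 5 genes was not tested.

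**Figure D4:**
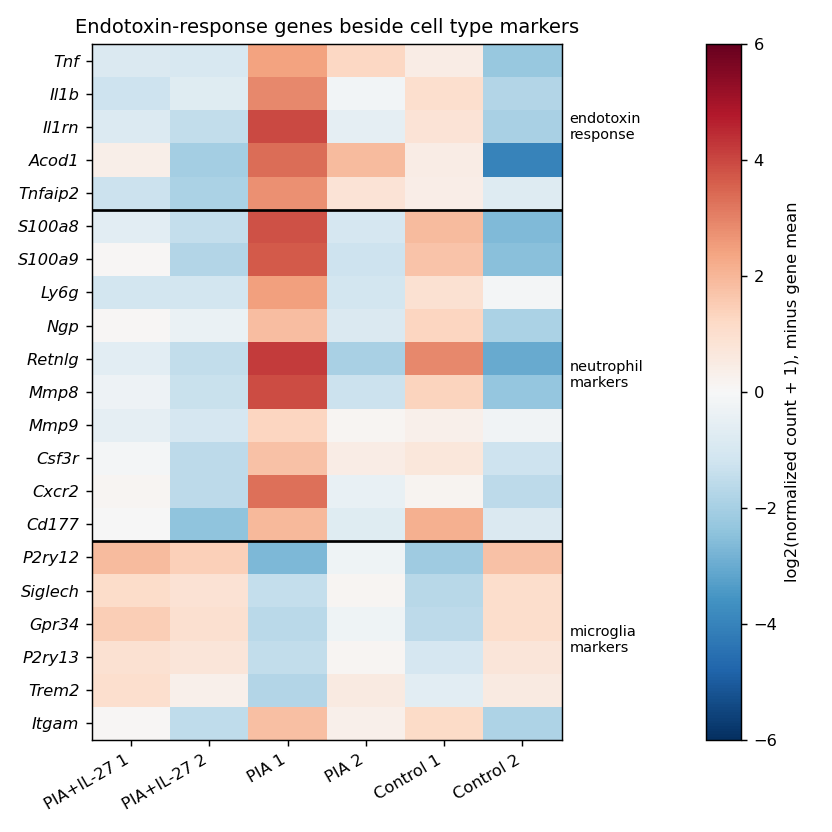
Log2(normalized read count + 1) of the 5 genes and of neutrophil and microglial markers in each library, minus the gene's mean over the 6 libraries (colour). All 5 genes and 9 of 10 neutrophil markers are highest in PIA 1, and 4 of 6 microglial markers are lowest there.

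The pathway around the 5 genes was followed in 6 lists holding 113 distinct genes, of which 51 are in the table and 42 besides the 5 were tested. In PIA against Control edgeR called none of the 42, against 0.218% of all tested genes, with 6 at an unadjusted p under 0.05, against 6.28% of all tested genes. DESeq2 called none. With 1 added to TPM, limma called 1 of the 42 and 6 of all 3216 genes, and with 0.1 added 2 of the 42 and 12 of all. The log2 fold change was above 0 for 37 of the 42, with a median of 1.22, and the groups did not overlap, PIA being higher, for 24 and lower for 1, against 15.3% of tested genes higher and 15.5% lower. In PIA+IL-27 against PIA edgeR called 2 of the 42, both lower, against 0.373% of tested genes lower; the median was -1.59, 37 were below 0, and the groups did not overlap, lower, for 31 and higher for 2, against 15.1% of tested genes lower and 61.5% higher. Of the 42, 29 were highest in PIA 1, against 11.0% of all tested genes. Without PIA 1, 25 of the 42 were higher in PIA 2 than in both Control libraries, against 20.3% of all tested genes, and the median log2 fold change of PIA against Control was 0.75. Likewise 32 of the 42 were lower in both PIA+IL-27 libraries than in PIA 2, against 20.7% of all tested genes, with a median of -1.10. In PIA+IL-27 against Control none of the 42 was called by edgeR (1 at an unadjusted p under 0.05, against 2.86% of all tested genes), DESeq2 or limma, and the median was -0.50, against 0.55 over all tested genes.

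**Figure D5:**
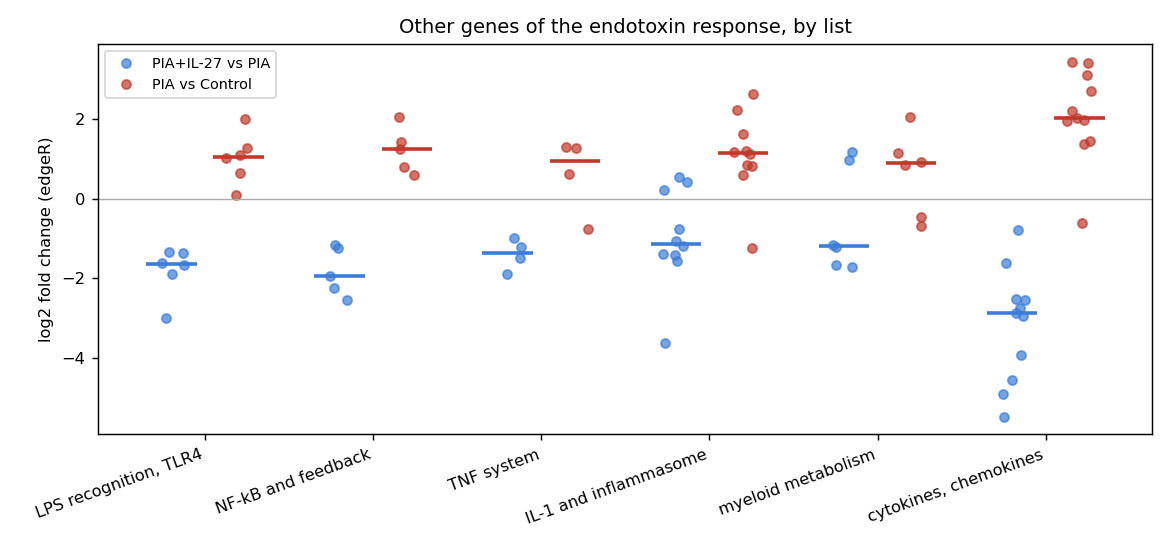
Log2 fold change of each tested gene in the 6 pathway lists for PIA+IL-27 against PIA and PIA against Control, with 1 point per gene and a line at the list's median, the 5 genes themselves left out. For PIA against Control 37 of 42 genes lie above 0, and for PIA+IL-27 against PIA 37 of 42 lie below.

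In LPS recognition and TLR4 signalling, 6 of 17 listed genes were tested, with a median log2 fold change of 1.06 for PIA against Control and -1.65 for PIA+IL-27 against PIA. All 6 were lower in both PIA+IL-27 libraries than in both PIA libraries, against 15.1% of all tested genes. Of the 6, 2 were higher in both PIA libraries than in both Control libraries, against 15.3% of all tested genes. Irak3, an inhibitor of TLR signalling, had 16.7 and 1.94 in the PIA+IL-27 libraries, 118 and 30.5 in the PIA libraries, and 33.3 and 3.81 in the Control libraries. Cd14, the LPS co-receptor, had 111 and 24.3 in the PIA+IL-27 libraries, 364 and 133 in the PIA libraries, and 155 and 50.5 in the Control libraries. In both genes PIA 2 lay below Control 1.

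The 5 tested of 21 NF-kB genes had medians of 1.25 and -1.94. In all 5 the PIA libraries were higher than the Control and the PIA+IL-27 libraries, against 9.86% of all tested genes. Bcl3, an atypical inhibitor family member that binds NF-kB, had 15.6 and 3.88 in the PIA+IL-27 libraries, 74.0 and 40.4 in the PIA libraries, and 19.6 and 7.62 in the Control libraries. Icam1, an adhesion molecule induced by NF-kB, had 140 and 69.9 in the PIA+IL-27 libraries, 481 and 321 in the PIA libraries, and 185 and 115 in the Control libraries. In both genes, as in Tnf, PIA 2 lay above Control 1.

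Of the TNF system, 4 genes besides Tnf and Tnfaip2 were tested, with medians of 0.94 and -1.36. Tnfrsf1b, the second TNF receptor, had 102 and 65.1 in the PIA+IL-27 libraries, 306 and 167 in the PIA libraries, and 133 and 60.0 in the Control libraries. Traf1, an adaptor of TNF receptors, went the other way in PIA, at 10.4 and 11.7 in the PIA+IL-27 libraries, 22.1 and 21.8 in the PIA libraries, and 35.3 and 40.0 in the Control libraries. Its log2 fold change for PIA against Control was -0.77, with no overlap of the groups.

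The 10 tested IL-1 family and inflammasome genes besides Il1b and Il1rn had medians of 1.14 and -1.13, with 9 above 0 for PIA against Control and 7 below 0 for PIA+IL-27 against PIA. Nlrp3, the sensor of an inflammasome, had 12.5 and 13.6 in the PIA+IL-27 libraries, 40.4 and 28.4 in the PIA libraries, and 13.7 and 8.57 in the Control libraries. The 6 tested genes of myeloid metabolism besides Acod1 had medians of 0.89 and -1.19, with 4 above 0 in PIA against Control and 4 below 0 in PIA+IL-27 against PIA. Hif1a, a hypoxia-inducible transcription factor gene, was 1 of the exceptions, at 1387 and 1037 in the PIA+IL-27 libraries, 732 and 343 in the PIA libraries, and 456 and 1027 in the Control libraries.

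The 11 tested cytokine and chemokine genes had the largest list medians, 2.02 and -2.87. Ccl5, a chemokine for T cells and monocytes, had 7.30 and 0 in the PIA+IL-27 libraries, 271 and 60.0 in the PIA libraries, and 50.0 and 0.952 in the Control libraries, and fell in PIA+IL-27 against PIA (edgeR, log2 -5.48 ± 1.21, adjusted p = 0.00286). Cxcl10, an interferon-induced chemokine, had 7.30 and 7.77 in the PIA+IL-27 libraries, 238 and 124 in the PIA libraries, and 39.2 and 2.86 in the Control libraries, and fell in that comparison (log2 -4.57 ± 1.13, adjusted p = 0.0174 by edgeR). Without PIA 1 the adjusted p was 0.534 for both by edgeR, with log2 fold changes of -4.01 for Ccl5 and -4.02 for Cxcl10. The Cxcl10 call was lost without any 1 of the 6 libraries (edgeR, adjusted p from 0.0533 to 0.559), and the Ccl5 call also without PIA+IL-27 2 (0.559), Control 1 (0.0533) or Control 2 (0.0568). With all libraries, the Ccl5 call was lost by DESeq2 (adjusted p = 0.163) and with TMM (0.264) and median-of-ratios factors (0.273) in edgeR. The Ccl5 call was kept in edgeR with the replicate block (adjusted p = 0.0169). It was also kept by limma with 1 and 0.1 added to TPM (adjusted p = 1.2e-05 and 2.09e-08). The Cxcl10 call was lost in edgeR with TMM (adjusted p = 0.257) and median-of-ratios factors (0.271) and with the replicate block (0.158). It was kept by DESeq2 (adjusted p = 0.0141) and by limma with 1 and 0.1 added to TPM (0.0100 and 0.00538). TMM and median-of-ratios factors were computed over the listed genes, which were selected on these same libraries. Ccl2, a monocyte chemokine, had 5.21 and 3.88 in the PIA+IL-27 libraries, 113 and 27.3 in the PIA libraries, and 33.3 and 2.86 in the Control libraries, with PIA 2 below Control 1 as for Il1b and Il1rn.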

How the data were processed

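RNA-seq of mouse hippocampus was analysed in 6 libraries, 2 per group, grouped by the treatment in the labels. The authors deposited, per the file headers, an expected count, a normalized read count (a signal), TPM and FPKM per gene and library, and a log2 fold change, p-value and Q value per comparison. Whole reads were recovered from 100% of the deposited normalized read counts (tolerance 1e-06): each is the count, rounded up, over 1 factor per library. Between 11.3 and 13.3% of the deposited expected counts are not whole. Aligner, counter, genome build, strand and the authors' test: not given in the sources used here.

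The 5 genes and the gene lists were chosen with earlier results of these data known. Expected counts were rounded, scaled by the authors' factors and tested with edgeR 4.0.16 (R 4.3.3; filterByExpr, quasi-likelihood test, Benjamini-Hochberg threshold 0.05) in 1 fit of the 6 libraries, which left 3216 genes, all 5 of the genes among them; the common coefficient of variation was 0.597. The prior degrees of freedom of that fit were infinite, so each gene's quasi-likelihood spread was set by the value pooled over genes. A gene's groups do not overlap when both libraries of one lie above both of the other. The fit was tested on simulated data. Besides the 5 genes, the 3 genes most correlated with each, every called list gene and up to 3 list genes per comparison with the smallest p could be named, with the defining markers of cell types. Interleukin-1 antagonists and receptors, Hif1a, Traf1, Itgam, Vcan, Gfap and S100a8 were named after their values were seen. Alternatives were factors by TMM or by median of ratios, testing unfiltered, a block for replicate number, fits restricted to 1 comparison's libraries, each library left out, DESeq2 1.42.0, and limma 3.58.1 on log2 TPM with 1 or 0.1 added. The count test on the recovered reads was added after seeing the data, and called 7, 15 and 10 genes in PIA against Control, PIA+IL-27 against PIA and PIA+IL-27 against Control. Replicate numbers were not taken to pair libraries.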

Additional observations from a re-analysis of the deposited data

How the results depend on the processing

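With the authors' factors edgeR called 7 genes in PIA against Control, 14 in PIA+IL-27 against PIA and 10 in PIA+IL-27 against Control. Factors computed over the listed genes, by TMM or by median of ratios, each called 0, 0 and 0 (unadjusted p under 0.05 for 118, 591 and 119 genes with TMM, and 114, 583 and 110 with median-of-ratios); TMM moved the median of all genes from -0.68, 1.17 and 0.55 to -0.00, -0.03 and -0.01. DESeq2 called 2, 4 and 1. In PIA against Control limma called 12 with 0.1 added to TPM; in PIA+IL-27 against Control it called 2 with 1 added and 5 with 0.1 added. With only the libraries of the comparison, 449 genes were called in PIA+IL-27 against PIA and 1 in PIA+IL-27 against Control. Leaving out 1 library gave 0 to 7 calls in each comparison, with 0 in PIA+IL-27 against PIA without PIA 1, Control 1 or Control 2.

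The 5 genes kept their direction in PIA+IL-27 against PIA under every alternative examined for them. In PIA against Control they did so as well, except Il1b and Il1rn without PIA 1. Leaving out 1 library, PIA against Control ran from -0.42 to 4.30 for Il1b and from -0.64 to 5.45 for Il1rn. PIA+IL-27 against Control ran from -1.52 to 1.95 for Tnf, -2.18 to 1.02 for Il1b, -2.17 to 1.04 for Il1rn, each above 0 without Control 1, and -1.84 to 6.51 for Acod1, whose highest value is set by the 0 reads of Control 2. Acod1 was at -1.23 with TMM and -1.20 with median-of-ratios factors. In PIA+IL-27 against PIA, the fit on only those 4 libraries gave -3.12 for Tnf (edgeR, adjusted p = 0.0497) and -3.72 for Tnfaip2 (adjusted p = 0.0493), without Il1b and Il1rn, which its filter removed, and DESeq2 gave -3.74 for Tnfaip2 (adjusted p = 0.0460). The difference in the Il1rn share ran from -3.85 to 20.2 points for PIA against Control, -20.7 to 4.30 for PIA+IL-27 against PIA and -12.5 to 12.5 for PIA+IL-27 against Control. The cause of these moves was not tested.

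Replicate numbers were shared between groups only as a number: deviations from the group means correlated at 0.145, -0.261 and 0.0610. With the replicate block 3, 4 and 3 genes were called, none of the 5 among them. Crossing the numbers in PIA+IL-27 against PIA, added after seeing the data, called 1195. The 5 genes were not examined in that crossed fit.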
